A study of Mus musculus with 16 samples.

Results

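The enzymes described here are the 10 genes of glycine cleavage, serine synthesis and mitochondrial one-carbon supply whose names stand in the deposited expression table: Gldc, Amt, Gcsh, Dld, Phgdh, Psat1, Psph, Shmt1, Shmt2 and Mthfd2. All 10 of these names were found among the 24187 rows. Gldc was picked because it was higher in mutant glands in this same comparison, so its values are given as a description without a test. The other 9, its partners, were picked for what their enzymes do, and the question was whether the higher level of Gldc extended to them. Messenger RNA was sequenced from whole mammary gland of C57BL/6 mice at day 13 of pregnancy, in 4 wild-type libraries (WT1 to WT4) and 3 libraries (Mut1 to Mut3) of Socs2-Δs mice, a line edited with CRISPR/Cas9. Wild-type animals were bought in, whereas the mutant line was made by editing, so genotype and source of the mice cannot be told apart. The labels give no age, no batch and no statement that replicates were separate animals, so the p-values measure only the spread between these libraries. Mut1 to Mut3 bear a genotype tag of wild type that conflicts with their titles, by which the libraries were grouped.

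The glycine cleavage system is an assembly of the mitochondrial matrix that breaks glycine into carbon dioxide and ammonia and passes the remaining carbon to tetrahydrofolate. Its P protein, glycine decarboxylase, is encoded by Gldc. The lipoyl-carrying H protein is encoded by Gcsh, the T protein, an aminomethyltransferase, by Amt, and the L protein, dihydrolipoamide dehydrogenase, by Dld. Serine is made from a glycolytic intermediate by the enzymes of Phgdh, Psat1 and Psph in that order. The hydroxymethyltransferases of Shmt1 (cytosol) and Shmt2 (mitochondrion) interconvert serine and glycine, and the enzyme of Mthfd2 oxidises the folate-bound carbon in mitochondria.

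Levels are FPKM, reads per kilobase of gene scaled per library, and can be compared between genes. The 7 libraries held 21.3 to 24.5 M reads each (M, 1e6), as recovered from the steps between low values. The scaling did not follow these totals. In WT3, which held the most reads, 1 read was worth 1.20 times 1 read in WT1, which held the fewest. FPKM summed over all rows to 421374 in WT1, the lowest, and to 771273 in WT3, the highest. The members were covered by 108 to 5623 reads per library. Socs2 itself was read in every library, at 16.1 to 25.6 FPKM in wild type and 13.9 to 17.1 in mutant glands (log2 difference -0.46, limma adjusted p = 0.267). Against WT1 and WT2 the difference was -0.58 without overlap (limma adjusted p = 0.0843), and the labels do not say what the edit removes. Markers of mammary epithelium were present throughout, with Krt8, a luminal keratin, at 161.0 to 378.1 FPKM in wild type and 260.1 to 392.3 in mutant glands. WT3 and WT4 stood apart. The summed level of 10 liver markers was 227.2 and 2176 FPKM in them, against 10.7 and 9.36 in WT1 and WT2 and 9.11 to 18.1 in mutant libraries, and that of 8 salivary markers was 304.5 and 85.3 FPKM, against 1.77 to 7.92 elsewhere. Tested differences are therefore given against all 4 wild-type libraries and against WT1 and WT2 alone.

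The promoter windows of Gldc, of Amt and Psat1, the partners whose groups did not overlap, and of Shmt2, the single member with a STAT motif, show the start regions of the genes on which the results turn. They run from 250 bases before to 50 after the transcription start and come from RefSeq on GRCm38.p6, in which all 10 members were matched. Capitals mark CCAAT on either strand and TTCNNNGAA, the STAT motif.
Gldc, chr19:30175392-30175691, minus strand: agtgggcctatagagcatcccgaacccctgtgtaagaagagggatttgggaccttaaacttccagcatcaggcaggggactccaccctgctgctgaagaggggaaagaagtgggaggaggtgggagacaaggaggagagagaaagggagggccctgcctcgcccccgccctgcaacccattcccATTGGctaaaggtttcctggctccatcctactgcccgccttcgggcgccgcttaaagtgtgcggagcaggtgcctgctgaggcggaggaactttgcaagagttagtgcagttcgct
Amt, chr9:108296655-108296954, plus strand: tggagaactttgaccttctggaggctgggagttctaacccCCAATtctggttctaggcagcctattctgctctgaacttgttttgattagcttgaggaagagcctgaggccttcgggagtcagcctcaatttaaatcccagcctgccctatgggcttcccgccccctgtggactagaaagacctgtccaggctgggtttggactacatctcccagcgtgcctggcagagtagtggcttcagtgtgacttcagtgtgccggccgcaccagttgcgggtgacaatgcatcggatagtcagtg
Psat1, chr19:15925010-15925309, minus strand: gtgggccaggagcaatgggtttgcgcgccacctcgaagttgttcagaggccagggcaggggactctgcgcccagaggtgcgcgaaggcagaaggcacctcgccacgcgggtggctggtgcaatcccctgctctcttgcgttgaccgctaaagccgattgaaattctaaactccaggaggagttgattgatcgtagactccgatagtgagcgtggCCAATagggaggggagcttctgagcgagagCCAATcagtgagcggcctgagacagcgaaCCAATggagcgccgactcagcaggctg
Shmt2, chr10:127522395-127522694, minus strand: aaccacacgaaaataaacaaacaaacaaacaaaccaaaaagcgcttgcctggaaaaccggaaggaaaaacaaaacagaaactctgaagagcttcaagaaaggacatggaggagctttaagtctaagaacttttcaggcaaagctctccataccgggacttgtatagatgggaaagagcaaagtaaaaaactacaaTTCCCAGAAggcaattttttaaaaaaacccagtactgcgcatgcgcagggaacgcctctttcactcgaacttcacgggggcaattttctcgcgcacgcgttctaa

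The window of Gldc held 1 CCAAT, read on the opposite strand from base -66 relative to the start, and none of TTCNNNGAA, of TGATGNAA, a core of the ATF4 motif, or of the E-box CACGTG. That of Amt held 1 CCAAT from base -210, and the printed window of Psat1 held 3. Among the 11 windows of the 10 members, TTCNNNGAA occurred in that of Shmt2 alone, as TTCCCAGAA from base -55, and TGATGNAA and CACGTG in none. Of all 32851 promoter windows of this length, 8.3% held TTCNNNGAA, 3.97% TGATGNAA, 7.15% CACGTG and 37.4% CCAAT. These motifs do not overlap in the windows shown, and a match describes letters, not a bound site.

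Gldc was the lowest of the 10 members in wild-type glands and was no longer the lowest in mutant glands. It measured 1.96, 1.59, 1.67 and 1.45 FPKM in WT1 to WT4 and 7.60, 8.60 and 8.00 FPKM in Mut1 to Mut3. All mutant libraries thus lay above all wild-type libraries, and the wild-type libraries differed little among themselves, including the pair that stood apart. The means were 1.67 ± 0.21 FPKM (SD, n = 4) and 8.07 ± 0.505 FPKM (SD, n = 3), a ratio of 4.83, and the ratio to WT1 and WT2 was 4.54. In whole gland, more cells of a type and more RNA per cell cannot be told apart. These values rest on 112 to 757 reads per library. Of the pair with raised liver transcripts, WT4 had the lowest level of Gldc of the 7 libraries, and WT3 lay between WT1 and WT2. The part of these transcripts in the level of Gldc was not tested.

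**Figure D1:**
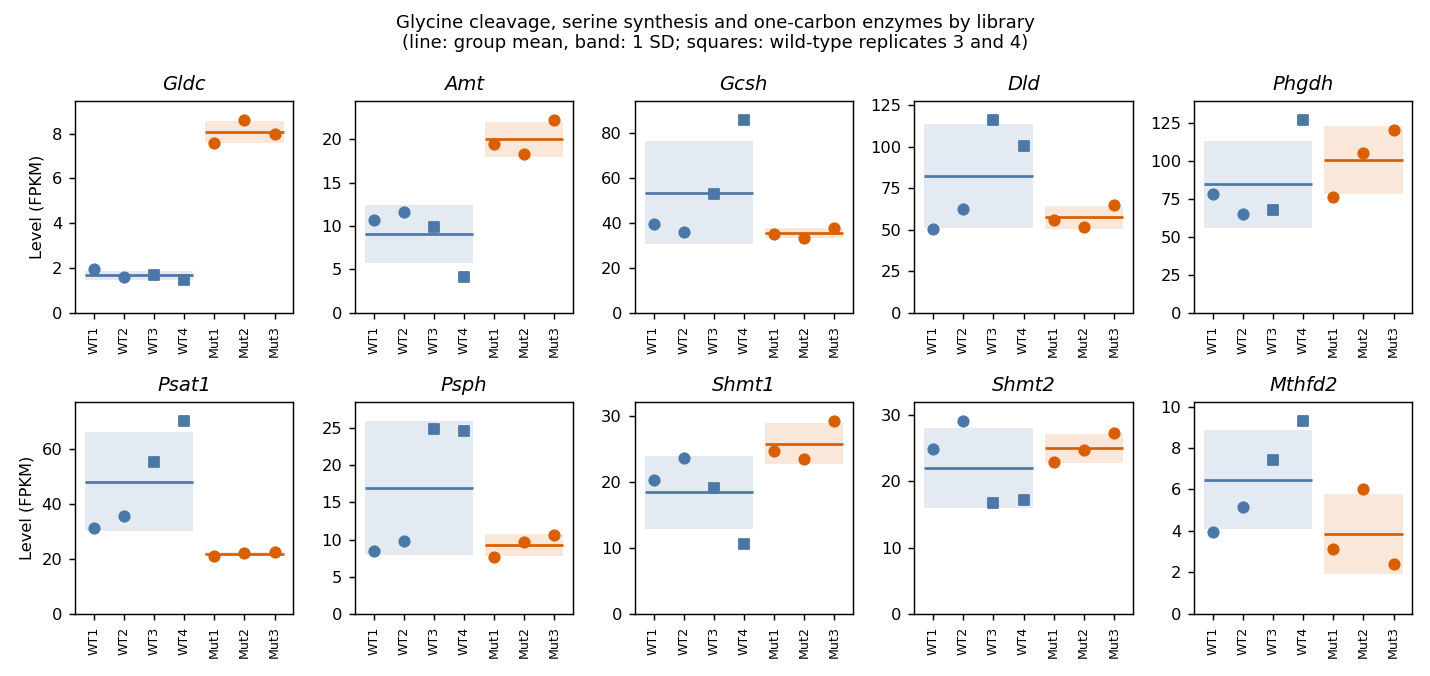
Level in FPKM of the 10 enzyme genes in each of the 4 wild-type (blue) and 3 mutant (orange) libraries; lines are group means, bands 1 SD, and squares mark WT3 and WT4. Gldc lies at 1.45 to 1.96 FPKM in wild type and 7.60 to 8.60 in mutant glands, Amt is also higher and Psat1 lower without overlap, and the other 7 genes overlap between the groups.

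Of the 9 partners, 0 passed against all 4 wild-type libraries (limma, Benjamini-Hochberg adjusted p under 0.05), and 2, Amt and Psat1, had an unadjusted p under 0.05. Among all 13392 genes tested, 6 or 0.0448% passed, all of them higher in mutant glands, and 18.1% had an unadjusted p under 0.05. All 9 partners were above the minimum of a mean of 1 FPKM. Against WT1 and WT2, 1 of the 9 rose, Amt, and 0 fell, and the same 2 had an unadjusted p under 0.05. Of the 13276 genes tested there 2.14% passed, 1.42% higher and 0.716% lower, and 20.2% had an unadjusted p under 0.05. The groups did not overlap for 2 of the 9 in either set, beside 22.5% of all genes with 7 libraries and 40.2% with 5.

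Amt was the partner that came nearest to the pattern of Gldc. It measured 10.7, 11.6, 9.89 and 4.14 FPKM in WT1 to WT4 and 19.5, 18.3 and 22.2 FPKM in Mut1 to Mut3. The groups did not overlap, and WT4 was well below the other wild-type libraries. The means were 9.10 ± 3.38 FPKM (SD, n = 4) and 19.998 ± 2.01 FPKM (SD, n = 3), a ratio of 2.20. The difference in log2(FPKM + 1), a scale that shrinks the changes of weakly expressed genes, was 1.13 (SE 0.31, 95% interval 0.42 to 1.85) and did not pass (limma adjusted p = 0.168). Against WT1 and WT2 the ratio was 1.79 and the difference 0.78 (SE 0.12, interval 0.49 to 1.08, limma adjusted p = 0.0401), so that Amt rose in this set. That call was lost when any 1 of the 5 libraries was left out (limma adjusted p = 0.0800 to 0.264), and in a fit to the 7 libraries in which WT3 and WT4 had their own coefficient (limma adjusted p = 0.346). Groups without overlap and with the mutant libraries higher were common, at 12.5% of all tested genes with 7 libraries and 22% with 5.

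Neither Gcsh nor Dld, of the H and L proteins, passed. Gcsh measured 39.4, 36.0, 53.1 and 85.9 FPKM in WT1 to WT4 and 35.3, 33.5 and 37.9 in Mut1 to Mut3. Dld, whose protein also serves the pyruvate, 2-oxoglutarate and branched-chain dehydrogenases, measured 50.1, 62.2, 116.0 and 100.6 FPKM in wild type and 56.0, 51.6 and 64.9 in mutant glands. For both genes WT3 and WT4 were the highest libraries, and WT1 and WT2 lay close to the mutant libraries. The log2 difference of Gcsh was -0.50 (interval -1.18 to 0.19, limma adjusted p = 0.369) against all wild-type libraries and -0.08 (-0.36 to 0.20, 0.738) against WT1 and WT2. That of Dld was -0.43 (-1.14 to 0.27, limma adjusted p = 0.434) and 0.03 (-0.35 to 0.42, 0.938).

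The proportions within the cleavage system differed between the groups. Of the summed FPKM of the 4 subunits, Gldc made up 1.91, 1.43, 0.927 and 0.755% in WT1 to WT4 and 6.42, 7.68 and 6.01% in Mut1 to Mut3. It thus stayed the smallest of the 4 in each library, at 12.3 to 16.7% of the level of Dld and 36.0 to 47.0% of that of Amt in mutant glands. The ratio to Amt was 13.7 to 18.2% in WT1 to WT3 and 35.0% in WT4, where Amt was low. The level of Amt relative to Gcsh was 4.82 to 32.3% in wild type and 54.7 to 58.6% in mutant glands, with no overlap. The summed FPKM of the 4 subunits did not separate the groups, at 102.3 and 111.4 in WT1 and WT2, 180.6 and 192.1 in WT3 and WT4, and 112.0 to 133.0 in mutant glands. These proportions contain Gldc or Amt and are given without a test, and the share of other gene pairs that separate in this way was not computed.

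**Figure D2:**
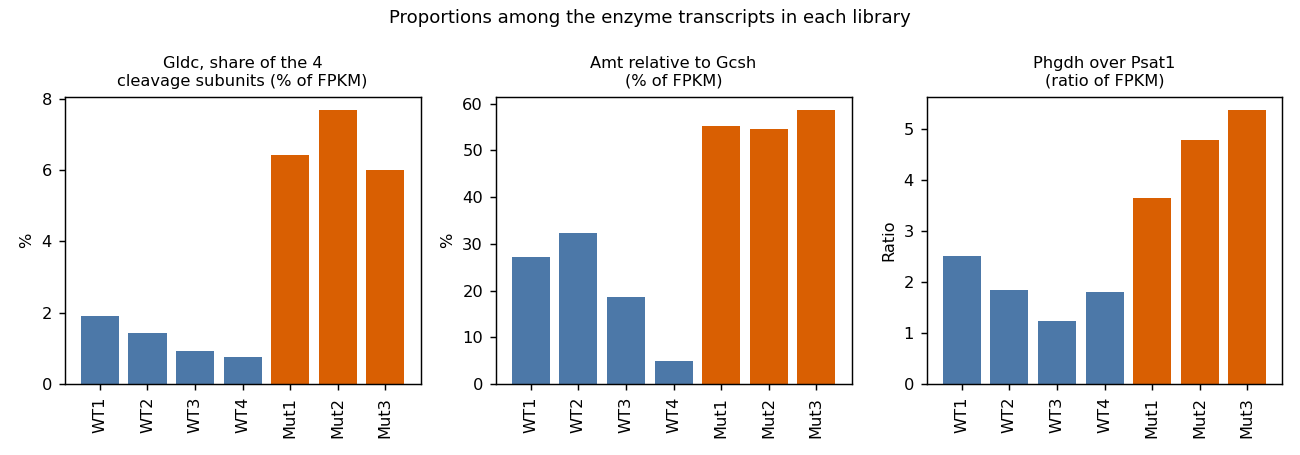
Proportions in each library: Gldc as percent of the summed FPKM of Gldc, Amt, Gcsh and Dld (left), Amt as percent of Gcsh (middle) and the ratio of Phgdh to Psat1 (right), wild type in blue and mutant in orange. In all 3 panels the mutant bars stand above every wild-type bar, at 6.01 to 7.68% for Gldc, 54.7 to 58.6% for Amt and a ratio of 3.65 to 5.38 for Phgdh to Psat1. None of the 3 was tested, and the share of other gene pairs that separate in this way was not computed.

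The 3 genes of serine synthesis did not share a direction. Phgdh, the entry enzyme, was the most abundant member by mean in both groups, at 78.6, 65.4, 67.9 and 127.0 FPKM in WT1 to WT4 and 76.6, 105.6 and 120.4 in Mut1 to Mut3. The groups overlapped, and the log2 difference was 0.28 (interval -0.38 to 0.93, limma adjusted p = 0.577), or 0.46 (-0.08 to 1.00, 0.315) against WT1 and WT2. Psat1, the aminotransferase of the following step, lay the other way without overlap. It measured 31.3, 35.5, 55.2 and 70.2 FPKM in wild type and 21.0, 22.1 and 22.4 in mutant glands, and every mutant library was below every wild-type library. The means were 48.1 ± 18.1 FPKM (SD, n = 4) and 21.8 ± 0.76 FPKM (SD, n = 3), a ratio of 0.454, and 0.653 against WT1 and WT2. The log2 difference was -1.03 (SE 0.28, interval -1.68 to -0.38, limma adjusted p = 0.168), and -0.59 (SE 0.11, interval -0.86 to -0.32, 0.0590) against WT1 and WT2. It passed in neither, and in the second set it passed under median-of-ratios scaling (-0.62, limma adjusted p = 0.0387). Groups without overlap and with the mutant libraries lower made up 10% of all genes with 7 libraries and 18.2% with 5.

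Psph, the phosphatase of the last step, measured 8.42 and 9.80 FPKM in WT1 and WT2, 24.96 and 24.6 in WT3 and WT4, and 7.67, 9.71 and 10.6 in Mut1 to Mut3. Only the pair that stood apart was high. Its log2 difference was -0.65 (interval -1.57 to 0.26, limma adjusted p = 0.373) against all wild-type libraries and 0.02 (-0.36 to 0.40, 0.961) against WT1 and WT2. The RefSeq spans of Psph and Cct6a, a chaperonin subunit, overlap, as do those of Shmt2 and Ndufa4l2, and that of Gldc holds the pseudogene Rpl31-ps20, for which no value was used here. With no stated use of strand, reads in a shared stretch cannot be told apart. The values of the pairs were listed apart, with Cct6a at 78.6 to 158.1 FPKM over the 7 libraries. The ratio of Phgdh to Psat1 was 1.23 to 2.51 in wild type and 3.65 to 5.38 in mutant glands. It is given without a test, and the groups overlapped for Phgdh itself.

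Neither hydroxymethyltransferase gene passed. Shmt1 measured 20.3, 23.7, 19.1 and 10.6 FPKM in WT1 to WT4 and 24.7, 23.4 and 29.2 in Mut1 to Mut3. WT2 lay just above the lowest mutant library, and WT4 was again low, as for Amt. The log2 difference of Shmt1 was 0.51 (interval -0.10 to 1.12, limma adjusted p = 0.325), and 0.22 (-0.12 to 0.56, 0.442) against WT1 and WT2. Shmt2 measured 24.9, 29.1, 16.7 and 17.2 FPKM in wild type and 22.9, 24.8 and 27.3 in mutant glands, with differences of 0.21 (-0.30 to 0.73, limma adjusted p = 0.589) and -0.11 (-0.42 to 0.21, 0.698). The ratio of Shmt1 to Shmt2 was near 1 in mutant glands, at 0.946 to 1.08, within the wild-type range of 0.616 to 1.14. Mthfd2, the mitochondrial methylene-tetrahydrofolate dehydrogenase, measured 3.94, 5.15, 7.44 and 9.31 FPKM in wild type and 3.11, 6.03 and 2.41 in mutant glands. Its mutant libraries differed among themselves by more than the group means did in the smaller set, and the log2 difference was -0.63 (interval -1.39 to 0.12, limma adjusted p = 0.326), or -0.25 (-1.03 to 0.52, 0.709).

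**Figure D3:**
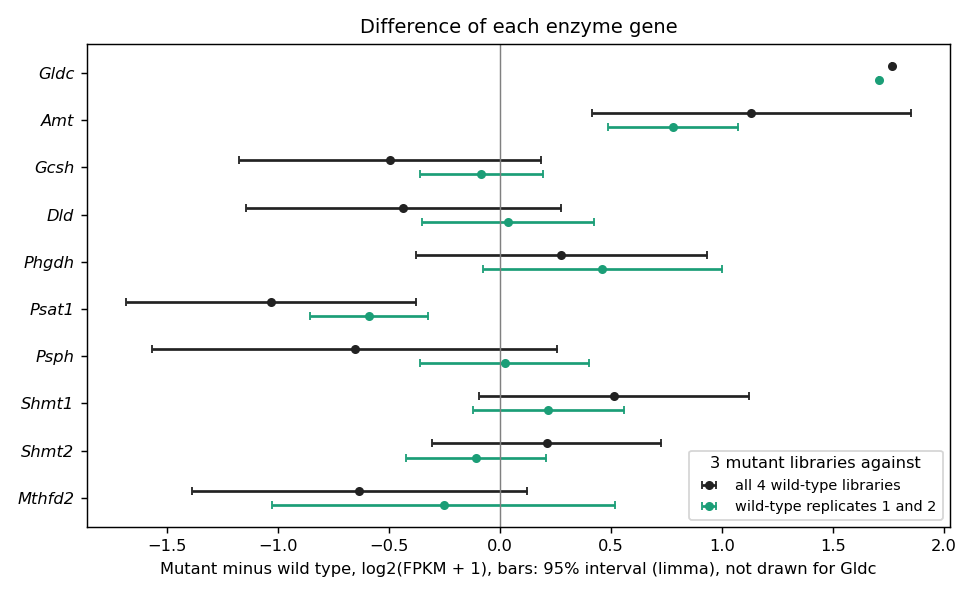
Difference between mutant and wild type for each enzyme gene on the log2(FPKM + 1) scale, against all 4 wild-type libraries (black) and against WT1 and WT2 (green), with 95% limma intervals for the 9 partners. Gldc, chosen for its higher level, is drawn without an interval; Amt lies to the right of 0 and Psat1 to the left in both sets, and the intervals of the other 7 genes include 0.

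The difference of Gldc was 1.77 on the log2(FPKM + 1) scale with 7 libraries and 1.71 with 5, as a description, and was 2.21 with 7 libraries on the log2(FPKM + 0.1) scale. For the partners that did not pass, the intervals still allow changes. With 7 libraries they reached up to 1.85 for Amt, above the 1.77 of Gldc, and for example 1.12 for Shmt1 and 0.93 for Phgdh. They are not adjusted for the number of genes. The median difference of the 9 partners was -0.43 with 7 libraries and 0.02 with 5, beside -0.0044 and 0.03 for all genes tested.

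The order of mean levels differed between the groups. In wild type the means ran from Phgdh and Dld (84.7 ± 28.8 and 82.2 ± 31.1 FPKM, SD, n = 4) through Gcsh, Psat1, Shmt2, Shmt1, Psph, Amt and Mthfd2 to Gldc. Between neighbours in this order only Psat1 and Shmt2, and Mthfd2 and Gldc, had ranges that did not overlap. In mutant glands the order was Phgdh (101 ± 22.3 FPKM, SD, n = 3), Dld, Gcsh, Shmt1, Shmt2, Psat1, Amt, Psph, Gldc and Mthfd2. There the ranges of Shmt1 and Shmt2, of Psat1 and Amt, and of Psph and Gldc overlapped.

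Marker lists of the gland's cell types were summed in each library, and 0 members of these lists passed with 7 libraries (limma). The summed level of 8 luminal keratin, adhesion and claudin genes was 1164 and 1396 FPKM in WT1 and WT2, 1703 in WT3, 764 in WT4 and 1366 to 2092 in mutant glands. All 8 were higher by mean log2 value in mutant glands (median 0.46), the sums overlapped, and 0 passed in either set. That of 5 alveolar genes was 2030 to 20611 FPKM in wild type and 32991 to 46985 in mutant glands, and that of 7 adipocyte genes 8097 to 18587 and 2806 to 4547 FPKM. Most of the first sum was Csn2 (1940 to 20118 and 31556 to 44988 FPKM), and most of the second Fabp4 (5785 to 14286 and 2104 to 3860 FPKM). With 7 libraries 4 of the 5 alveolar genes were higher without overlap and 4 of the 7 adipocyte genes lower, beside 12.5% and 10% of all genes. Of the alveolar genes 3 of 5 rose and of the adipocyte genes 2 of 7 fell against WT1 and WT2 (limma), beside 1.42% higher and 0.716% lower of all 13276 genes. The 5 myoepithelial markers had a median difference of 0.06, and their sums overlapped at 446.4 to 887.5 FPKM in wild type and 775.3 to 947.1 in mutant glands. Fibroblast markers summed to 1573 to 1993 FPKM in wild type and 987.1 to 1433 in mutant glands, and 4 macrophage markers to 83.0 to 145.0 and 53.9 to 74.7 FPKM. Per 100 FPKM of Krt8, Gldc measured 0.443 to 0.901 FPKM in wild type and 2.04 to 3.31 in mutant glands, and Amt 2.57 to 4.42 and 5.66 to 7.04, both without overlap. Per 100 FPKM of Krt18, a partner keratin, Gldc was at 0.370 to 0.948 and 1.54 to 3.25 FPKM, whereas for Amt Mut3, at 4.29, lay below WT1 and WT2, at 4.52 and 4.34. The ratio of mutant to wild-type means was 1.21 for Krt8 and 1.28 for Krt18, against 2.14 (Elf5) to 32.5 (Wap) for the 5 alveolar genes. Levels relative to alveolar genes were not taken. The values per keratin thus cover these keratins only and do not account for cell composition. Markers of dividing cells, 10 genes, summed to 198.0 to 314.2 FPKM in wild type and 176.6 to 183.7 in mutant glands. Pcna was the largest part of this sum, at 83.7 to 151.3 FPKM in wild type and 65.3 to 77.8 in mutant glands. With 7 libraries 9 of the 10 were lower by mean log2 value, 2 of them without overlap, beside 10% of all genes. Mki67 was higher (0.34), at 6.53 to 18.3 FPKM in wild type and 13.1 to 20.9 in mutant glands. The part of cell composition in the members' differences was not tested.

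The other genes of the pathway followed lists chosen by function, 98 genes in all, each found in the table. Of the 87 tested with 7 libraries 0 passed (limma), and 15 had an unadjusted p under 0.05. Their median difference was -0.13 on the log2(FPKM + 1) scale. Some of the 87 reached the minimum mean of 1 FPKM through 1 group. Bhmt and Mat1a did so through WT4, at 23.8 and 10.4 FPKM, and were not tested with 5 libraries. Pipox did so through the mutant libraries, with a wild-type mean of 0.746 FPKM. Such genes count in the 87 and in the median. In 4 of the 87, or 4.6%, the mutant libraries were higher without overlap and in 14, or 16.1%, lower, beside 12.5% and 10% of all genes. Against WT1 and WT2, 1 of 86 rose and 2 fell, beside 1.42% and 0.716% of all genes. There 27 of the 86 had an unadjusted p under 0.05, and the median difference was -0.07. The mutant libraries were higher without overlap in 12 (14%) and lower in 24 (27.9%), beside 22% and 18.2% of all genes. Each of these 3 calls was lost when any 1 of the 5 libraries was left out (limma adjusted p = 0.0661 to 0.251), and in the fit to the 7 libraries in which WT3 and WT4 had their own coefficient (limma adjusted p = 0.309 to 0.443).

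Folate genes of the cytosol and cell surface held 2 of these 3 calls. Folr1, a folate receptor of epithelia, measured 13.0, 19.3, 49.7 and 8.22 FPKM in WT1 to WT4 and 46.2, 64.9 and 78.4 in Mut1 to Mut3. It rose against WT1 and WT2 (log2 difference 1.90, limma adjusted p = 0.0361) and not against all 4 (1.72, 0.193), and WT3 lay above Mut1. Aldh1l1, the cytosolic formyltetrahydrofolate dehydrogenase, measured 19.4, 17.6, 17.8 and 44.4 FPKM in wild type and 10.3, 11.1 and 11.1 in mutant glands. It fell against WT1 and WT2 (-0.72, limma adjusted p = 0.0365), and the groups did not overlap with 7 libraries (-1.01, 0.198). Of the 14 genes tested in this list 5 were higher and 9 lower with 7 libraries.

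Slc7a10, a transporter of small neutral amino acids, glycine and serine among them, that marks white fat cells, was the third call. It measured 68.3, 55.8, 19.1 and 83.5 FPKM in wild type and 21.0, 30.4 and 24.5 in mutant glands. It fell against WT1 and WT2 (-1.27, limma adjusted p = 0.0365) and overlapped with WT3 in the full set (-0.97, 0.30). The adipocyte markers summed to 2806 to 4547 FPKM in mutant glands and to 8327 and 8097 FPKM in WT1 and WT2. In WT3, the library with the lowest Slc7a10, they summed to 8952 FPKM. The part of fat cells in the level of Slc7a10 was not tested. Among the 11 transport genes tested 5 were higher and 6 lower.

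In the lists without a call, the gene of smallest p is given for each. Pipox, the peroxisomal sarcosine oxidase that yields glycine, measured 0.680 to 0.821 FPKM in wild type and 1.72 to 2.95 in mutant glands (0.95, limma adjusted p = 0.122), the groups not overlapping, and differed by 0.99 (limma adjusted p = 0.0649) against WT1 and WT2. Bckdhb, a subunit of the branched-chain dehydrogenase, whose complex uses the protein of Dld, measured 30.1 to 78.1 and 18.3 to 24.1 FPKM, also without overlap, with a difference of -0.86 (limma adjusted p = 0.249) that was -0.52 (0.122) against WT1 and WT2. Lipt2, a lipoyl transferase of the route that modifies the H protein, had a difference of -0.39 (limma adjusted p = 0.283) with 7 libraries and -0.37 (0.268) with 5. For Mtfmt, the mitochondrial formyltransferase, the difference of 0.32 (limma adjusted p = 0.408) was 0.0014 (0.997) without WT3 and WT4. Cbs, which joins serine to homocysteine, differed by -0.57 (limma adjusted p = 0.313) and -0.56 (0.173). Vldlr, a lipoprotein receptor listed with the ATF4 response, differed by -0.61 (limma adjusted p = 0.224) and -0.52 (0.261). Atf4, the factor that drives serine synthesis genes under amino acid stress, measured 83.2, 105.4, 58.1 and 52.5 FPKM in wild type and 86.5, 101.3 and 162.0 in mutant glands, and the groups overlapped. Its difference was 0.64 (limma adjusted p = 0.314), and 0.26 (0.671) against WT1 and WT2. The median of the 17 genes of the ATF4 response was 0.05 with 7 libraries, with 9 higher and 8 lower, and -0.03 with 5.

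**Figure D4:**
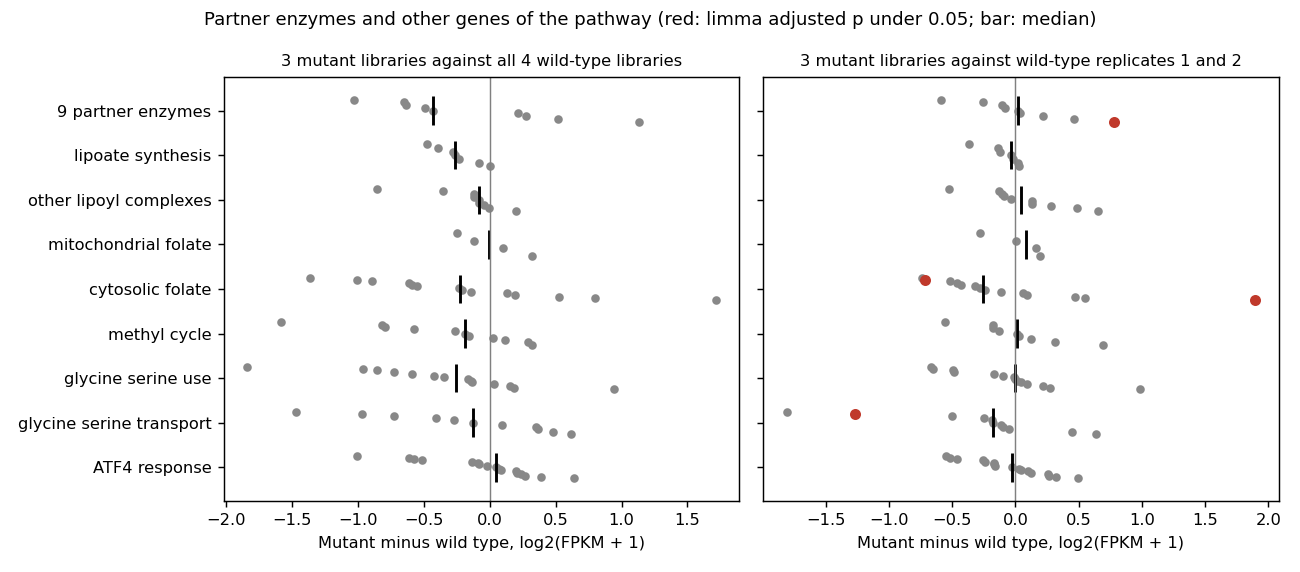
Difference between mutant and wild type on the log2(FPKM + 1) scale for the 9 partners and for the tested genes of 8 lists of related function, against all 4 wild-type libraries (left) and WT1 and WT2 (right); each point is a gene, the bar is the median and red marks a limma adjusted p under 0.05. No point on the left is red, and on the right Amt, Folr1, Aldh1l1 and Slc7a10 are.

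Neighbours of Gldc were taken in the gene order of GRCm38.p6 among genes with deposited values. On the log2(FPKM + 1) scale those tested did not differ by as much as Gldc did. Uhrf2, a ubiquitin ligase gene next to it, measured 12.9 to 16.2 FPKM in wild type and 17.3 to 20.5 in mutant glands, higher without overlap but by 0.30 on the log2 scale (limma adjusted p = 0.309), or 0.25 (0.287) against WT1 and WT2. On the other side Mbl2, a lectin made by liver, measured 19.2 FPKM in WT4 and 0.659 or less in the other libraries. Its log2 difference was -1.25 (limma adjusted p = 0.475). The ratio of its means, 0.0056, was a larger fold difference than that of Gldc and rested mainly on WT4. The next neighbours were Trpd52l3, listed at 0 in all libraries, and Ppp1r2-ps3, a pseudogene, at 39.8 to 48.9 and 27.7 to 34.7 FPKM (-0.43, limma adjusted p = 0.244, and -0.41, 0.200, against WT1 and WT2).

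The genes whose profile over the 7 libraries was most like that of Gldc, by the mean absolute difference of centred log2(FPKM + 1) values, were Slc9a4 (0.0628), Hephl1 (0.170), Xdh (0.180), Kcnk6 (0.184), Rogdi (0.189) and Slc7a5 (0.190), among 12637 named genes. Slc9a4, a sodium/proton exchanger, measured 0.295 to 0.516 FPKM in wild type and 3.31 to 4.02 in mutant glands. Slc7a5, which carries large neutral amino acids, measured 16.0 ± 4.002 FPKM (SD, n = 4) and 48.2 ± 2.67 FPKM (SD, n = 3). Over WT1 and WT2 and the mutant libraries the nearest were Slc9a4, Timd2, Mapk4, Hephl1, Fam20c and Kcnk6, so that 3 genes stood in both lists. Amt ranked 186 of 12637 over 7 libraries and 214 of 12499 over 5, and the remaining partners ranked from 1306 (Shmt1) to 12158 (Psat1) over 7. Over 5 they ranked from 733 (Phgdh) to 11707 (Psat1), with Shmt1 at 2449, so the partner next after Amt differed between the sets. The profiles share their libraries, and the likeness is a description of these samples.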

How the data were processed

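Poly(A) RNA of 7 mammary gland samples was sequenced with a TruSeq kit, per the labels' protocols. The series' 9 samples of other assays were not analysed here. CASAVA, DESeq2, STAR, Bowtie2 and the build mm9 stand in the submitters' processing notes, without roles. The authors deposited FPKM for 24187 rows; for annotation, filters and use of strand, nothing is given in the sources used here. The deposited FPKM, as log2(FPKM + 1), were tested with limma 3.58.1 in R 4.3.3 (trended empirical Bayes) where a gene's mean reached 1 FPKM, with no covariate, Benjamini-Hochberg adjustment over all genes tested and a threshold of 0.05. Reads were recovered as whole multiples (tolerance 0.02) in 21044 of 21044 expressed rows, as the smallest whole numbers that the values of a gene allow; on simulated reads 98.4% of 497 rows were exact. On simulated data for this comparison (13229 genes) the test recovered 37.9% of changes of 1 and 81.2% of changes of 2 on the log2 scale. Changes of that smaller size were thus often missed there. The simulation drew the noise of each library independently, with no pair that stood apart, so these shares may not hold for the real libraries. In the real fit with 7 libraries the alveolar genes Wap, at 5.55 (limma adjusted p = 0.0817), and Csn2, at 2.52 (0.210), did not pass. Replicate numbers were not taken as pairs in the main fit. Members, lists and the set without WT3 and WT4 were chosen with earlier results of these data known. Named genes were the members, pathway genes past the threshold in either set (otherwise the smallest p of a list), the 6 genes most like Gldc in each set, its 2 neighbours on each side, Atf4 and a few markers. Alternatives were other pseudocounts, filters, scalings, left-out libraries and a replicate block.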

Additional observations from a re-analysis of the deposited data

Results flagged for a closer look

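In wild-type glands Amt had 1 library far from the others: on the log2(FPKM + 1) scale the gap between replicate 4, at 4.14 FPKM, and the next library was 0.835 of the whole range, above Dixon's 95% limit for 4 values. Of the 10 members 1 was flagged in this way, and chance flags about 1 in 20 groups. In the same library the luminal markers summed to 764 FPKM, against 1164 to 1703 in the other 3 wild-type libraries, and the adipocyte markers to 18587 FPKM, against 8097 to 8952. The liver markers summed to 2176 FPKM there, against 9.36 to 227.2 in those 3. The part of these cell types in the low value was not tested. Without wild-type replicate 4 the difference of Amt was 0.84 in place of 1.13 and did not pass (limma adjusted p = 0.0994; 0.0401 to 0.472 over the alternatives tried).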

How the results depend on the processing

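Over the alternatives tried the 6 members Amt, Gcsh, Phgdh, Psat1, Shmt1 and Mthfd2 kept their direction in 15 of 15. Gldc ranged from 1.70 to 2.21 over 14 alternatives, the highest with a pseudocount of 0.1. Gldc was picked for its higher level and its groups did not overlap, so leaving out libraries could not turn its direction. Nor could it turn that of Amt or Psat1, whose groups did not overlap either. With a minimum mean of 5 FPKM Gldc was not tested. Without wild-type replicates 3 and 4 the direction turned for Dld (0.035), Psph (0.022) and Shmt2 (-0.11), each near 0. The 0 partners and 0 pathway genes called became 1 and 3 in that set and stayed at 0 under each other alternative. In that set median-of-ratios scaling called 2 partners, 1 higher and 1 lower, leaving out any 1 library called 0, as did the fit to the 7 libraries with a separate coefficient for that pair, which was chosen after seeing the data, as was trying these alternatives on the 3 pathway genes. Where 1 wild-type library remained, it was assumed to vary like the mutant libraries. The 6 genes called in the whole table became 1 with a pseudocount of 0.1 or without a filter, 0 with a minimum of 5 FPKM, 28 with quantile normalization (25 higher and 3 lower), 0 to 31 with 1 library left out (17 without wild-type replicate 3, 31 without wild-type replicate 4, 1 without mutant replicate 3 and 0 without each other library) and 284 without wild-type replicates 3 and 4. The replicate block, over replicates 1 to 3 of both groups, called 0 genes. Deviations of same-numbered libraries correlated by 0.350, -0.104 and 0.283. Among replicates 1 to 3 each mutant library correlated best with the wild-type library of its number. Wild-type replicate 2, however, correlated best with mutant replicate 3 (0.116). The labels state no pairs, and the numbers were not taken as pairs. Whether same-numbered libraries share a batch cannot be told. Depth limits Gldc, Amt and Mthfd2 most, at 108 to 757 reads.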
